A study of Mus musculus with 8 samples.

Results

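The inhibitory and paired immunoglobulin-like receptors are surface proteins of myeloid cells, and 10 of their genes were followed in primary mouse microglia with and without IgG. The genes were picked by symbol, with earlier results of these data known (Pirb, Lilrb4a, Lilr4b, Pilra, Sirpa, Lair1, Cd300a, Cd300lf, Cd300ld and Cd300lb), and all 10 were found among the 55385 rows of the count table and passed the filter on low counts, which kept 17537 genes. Primary microglia, the resident macrophages of the brain, were shaken off mixed cultures of pooled neocortex and hippocampus of newborn wild-type mice and were then given IgG at 10 µg/ml for 24 h from day 15 in vitro, or no IgG. The control cultures are called untreated in the labels and received PBS according to the methods. The 4 control and 4 IgG libraries were matched into 4 pairs by the date in their labels. The cells come from pooled pups and from culture with serum, so a pair stands for a date and not for an animal. The labels do not say what the date marks, and neither they nor the methods name a control immunoglobulin.

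Receptors of this family sit in the membrane of macrophages, microglia and other leukocytes with 1 or more immunoglobulin folds outside the cell. The inhibitory members carry tyrosine-based inhibitory motifs in the cytoplasmic tail, which Src-family kinases phosphorylate and which then bind the phosphatases Ptpn6, Ptpn11 and Inpp5d. The activating members have short tails and signal through the adaptors Tyrobp or Fcer1g and the kinase Syk, the same route that IgG receptors use. Many of the genes come as pairs that resulted from duplication, with near-identical outer domains and tails of opposite sign, and such pairs are known for setting the threshold of phagocytosis and of responses to immune complexes.

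The libraries held between 21287816 and 23703216 counts, and the counts of the 10 genes in a single library ran from 85 to 52540. CPM, the counts scaled by library size and TMM factors, are used for values of 1 gene across libraries, and CPM per kb of exon for levels between genes. Markers of microglia summed to 6256–6723 CPM in the control and 6510–7534 CPM in the IgG libraries, and 9 of these 10 markers had fitted values above 0 (median 0.20 on the log2 scale), of which Aif1 passed adjustment at 0.69. Markers of border macrophages summed to 66.4–93.9 CPM in the control and 65.5–118 CPM in the IgG libraries. Of the 5 tested, 3 had fitted values above 0 and 2 below (median 0.17), none past adjustment. Cbr2 met an unadjusted p under 0.01 by edgeR's quasi-likelihood test with a log2 fold change of 1.23. Mrc1 had 0.48, 0.07, 0.39 and -0.24 within pairs 1 to 4. The defining markers of neutrophils S100a9, Ly6g, Mpo and Elane were at 0 in all 8 libraries, as were the T and NK cell markers Cd3e, Cd3g, Cd8a and Ncr1. The list for neutrophils summed to at most 2.23 CPM. The list for B, T and NK cells, in which Klrb1c was highest, summed to 1.25–2.88 CPM in the control and 1.56–2.36 CPM in the IgG libraries. Oligodendrocyte markers summed to 1058–1654 CPM in the control and 891–1559 CPM in the IgG libraries, and all 7 had fitted values below 0 (median -0.15), none past adjustment. The part of these shifts in the receptor values was not tested. The mitochondrial share of counts was 2.32–2.41% in the control libraries but 4.85, 2.21, 5.59 and 1.97% in IgG libraries 1 to 4. IgG libraries 1 and 3 therefore stand apart from the other 6, and for the 10 receptors values without these pairs are given where they moved by over 1.5 times or changed direction, and for Pilra.

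Sirpa was the most abundant of the receptors and Cd300lf the least, with a span of over 2 orders of magnitude between them. In the control libraries the mean level was 419 ± 27.8 CPM per kb (SD, n = 4) for Sirpa, the receptor for the anti-phagocytic ligand Cd47, above 99.3% of the tested genes. Lilrb4a, an inhibitory receptor also called gp49B, followed at 129 ± 22.9 CPM per kb, with no overlap between their libraries. Cd300lb, an activating receptor that signals through Tyrobp, stood at 77.7 ± 3.64 CPM per kb and Lilr4b (gp49A), the relative of Lilrb4a, at 76.0 ± 9.28 CPM per kb, and these levels overlapped. Pirb, an inhibitory receptor for class I MHC and for the myelin inhibitors Rtn4 and Mag, was at 20.1 ± 2.73 CPM per kb. The collagen receptor Lair1 was at 19.0 ± 0.986 CPM per kb and Cd300a, an inhibitory receptor for phosphatidylserine, at 18.4 ± 1.03 CPM per kb, and the control libraries of Pirb, Lair1 and Cd300a overlapped one another. Cd300ld, an activating receptor that pairs with Fcer1g, had 10.3 ± 1.11 CPM per kb. Pilra had 2.45 ± 0.333 CPM per kb, above 37.5% of the tested genes, and Cd300lf, an inhibitory lipid receptor, 1.38 ± 0.612 CPM per kb. The order was the same in both groups except that the mean of Lilr4b passed that of Cd300lb and the mean of Lair1 passed that of Pirb with IgG. The plot of levels per exon length shows the steps between the receptors beside the much smaller steps between the groups.

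**Figure D1:**
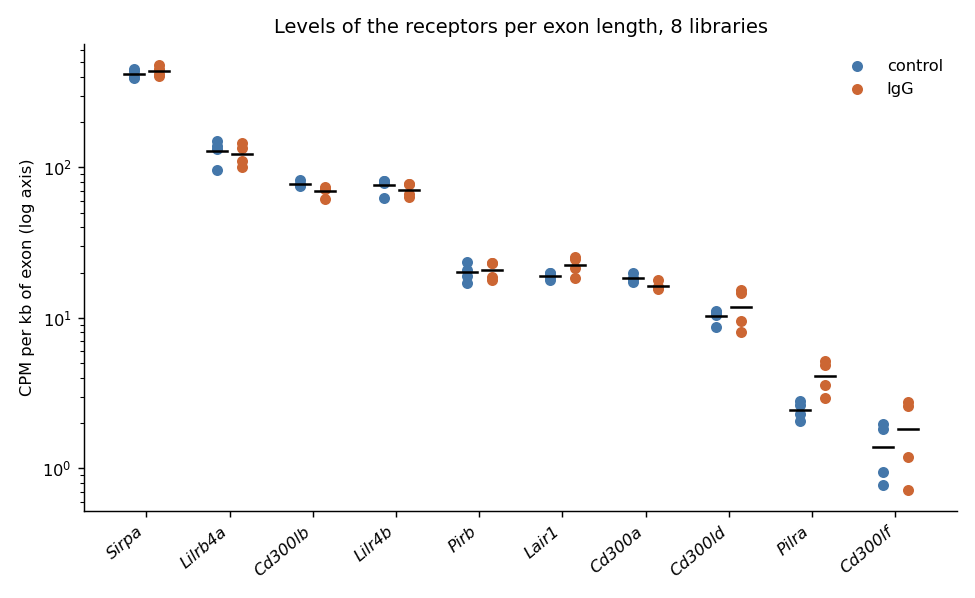
Level of each receptor in CPM per kb of exon on a log axis, with 1 point per library (blue, control; orange, IgG; 4 libraries each) and the group mean as a black bar. Sirpa lies near 419 and Cd300lf near 1.38 CPM per kb in the control libraries, and only Pilra and Cd300lb have groups that do not overlap.

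Pilra was the receptor that changed most with IgG. It encodes the inhibitory member of the PILR group, whose receptors bind sialylated glycoproteins, and lies on chromosome 5 on the minus strand. It had 8.70, 6.40, 8.11 and 7.10 CPM in control libraries 1 to 4 and 14.9, 9.03, 16.0 and 11.0 CPM in IgG libraries 1 to 4. The groups did not overlap, since the lowest IgG value exceeded the highest control value, and the highest values were those of IgG libraries 1 and 3. In such bulk RNA a change in the number of cells that express a gene and a change per cell cannot be told apart. The group means were 7.58 ± 1.03 and 12.7 ± 3.28 CPM (SD, n = 4), and the log2 fold change was 0.73 (SE 0.13, 95% interval 0.43 to 1.02), with 0.77, 0.49, 0.98 and 0.63 within pairs 1 to 4 and a fitted value of 0.57 without pairs 1 and 3. By edgeR's quasi-likelihood test with the pairs as a block, Pilra had an unadjusted p of 0.00045 and an adjusted p of 0.067 over all genes. It thus met the threshold of the study, an unadjusted p under 0.01 with an absolute log2 fold change above 0.5, but missed an adjusted p of 0.05. The adjusted p fell on the other side of 0.05 with DESeq2 (0.0081), with the likelihood ratio test (0.00022), without the filter on low counts (0.0036) and after a correction for gene length and GC content (0.024). Pilra shares 468 of its 3090 exonic bases (15.1%) with Zcwpw1 on the opposite strand, and whether the counting used strand is not given in the sources used here. Of the 50-base words in the Pilra transcripts, 20.8% also occur in other genes, with 13.2% in Zcwpw1. Zcwpw1 itself went from 3.81 to 4.97 CPM (log2 fold change 0.38, adjusted p = 0.46 by the same test), so a part of the Pilra counts cannot be told apart from it.

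The activating counterparts Pilrb1 and Pilrb2, which signal through Tyrobp, lie beside Pilra. Their coding sequences were 88.1% and 85.6% identical to that of Pilra over the aligned columns. Pilrb1 went from 1.62 ± 0.375 to 2.78 ± 0.416 CPM, a log2 fold change of 0.79 (SE 0.20), with no overlap between the groups. Pilrb2 went from 1.78 ± 0.557 to 2.94 ± 0.508 CPM, a log2 fold change of 0.75 (SE 0.21), and its groups did not overlap either (IgG above control in 2.6% of all genes tested). Both met the threshold of the study, with adjusted p-values of 0.25 and 0.30 by edgeR's quasi-likelihood test. The counts of these genes were low, between 25 and 74 in a library. The ratio of their summed counts to those of Pilra was 0.309–0.570 in the control and 0.401–0.596 in the IgG libraries, and it moved by 0.06 ± 0.31 on the log2 scale within pairs (SD, n = 4). No test was made of this ratio, which was chosen after the values were seen.

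The promoters of this gene trio are shown because all 3 genes were higher with IgG in 4 of 4 pairs. Whether they moved alike was not tested. The sequences are those of RefSeq for 250 bases before to 50 bases after the transcript start, 5′ to 3′, and capitals mark matches to the core of the interferon-stimulated response element (ISRE), taken as GAAA, any 2 bases and GAAA again on either strand.
Pilra (GRCm38.p6, chr5:137836229-137836528, minus strand): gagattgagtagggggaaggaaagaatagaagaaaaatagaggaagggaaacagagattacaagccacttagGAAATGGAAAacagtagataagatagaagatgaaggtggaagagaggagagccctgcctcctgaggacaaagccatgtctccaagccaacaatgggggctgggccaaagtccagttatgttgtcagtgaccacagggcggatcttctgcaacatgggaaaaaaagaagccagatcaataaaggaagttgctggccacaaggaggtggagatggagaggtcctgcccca
Pilrb1 (GRCm38.p6, chr5:137858000-137858299, minus strand): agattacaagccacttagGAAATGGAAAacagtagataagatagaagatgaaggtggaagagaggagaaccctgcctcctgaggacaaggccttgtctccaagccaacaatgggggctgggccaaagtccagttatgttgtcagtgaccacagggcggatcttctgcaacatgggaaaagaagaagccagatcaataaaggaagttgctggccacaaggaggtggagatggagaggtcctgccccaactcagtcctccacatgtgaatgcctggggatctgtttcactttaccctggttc
Pilrb2 (GRCm38.p6, chr5:137871709-137872008, minus strand): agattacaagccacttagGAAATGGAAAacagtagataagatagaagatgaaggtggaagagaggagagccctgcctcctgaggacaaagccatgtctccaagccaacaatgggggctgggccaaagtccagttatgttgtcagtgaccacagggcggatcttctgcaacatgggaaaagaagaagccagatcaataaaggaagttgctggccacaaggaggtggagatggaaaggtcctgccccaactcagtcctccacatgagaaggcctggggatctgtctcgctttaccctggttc
All 3 hold the same match, GAAATGGAAA, which begins 178 bases before the start of Pilra and 232 bases before those of Pilrb1 and Pilrb2. Over the stretch that aligns, the promoter of Pilra was 98.4% identical to that of Pilrb1 and 99.2% to that of Pilrb2, so the shared match comes with the duplication and the 3 promoters are not separate observations. This motif stands in 3.44% of the 32851 promoters of the same length. A match is a description of letters and not a bound site.

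Of the 8 receptors with a promoter entry, Pilra was the only one with the ISRE core. Lilr4b held the gamma-activated site core (GAS, TTCNNNGAA), which stands in 8.3% of promoters and reads the same on both strands. The PU.1-type core GAGGAAGT, letters bound by a myeloid lineage factor, was searched on both strands and stood in the promoters of Pirb, Cd300ld and Cd300lf, against 3.2% of all promoters. It began 120 bases before the start of Pirb and 143 bases before that of Cd300ld. No match to any of the 3 motifs was found in the windows of Lair1, Cd300a and Cd300lb. The promoters of Pirb and Cd300ld are shown with the PU.1-type core in capitals.
Pirb (GRCm38.p6, chr7:3720333-3720632, minus strand): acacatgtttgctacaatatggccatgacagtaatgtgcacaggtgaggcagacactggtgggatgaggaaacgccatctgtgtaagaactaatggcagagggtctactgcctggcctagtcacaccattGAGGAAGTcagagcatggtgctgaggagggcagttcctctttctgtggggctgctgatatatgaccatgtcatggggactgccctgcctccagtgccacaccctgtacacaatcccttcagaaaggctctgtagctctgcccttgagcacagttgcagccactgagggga
Cd300ld (GRCm38.p6, chr11:114989837-114990136, minus strand): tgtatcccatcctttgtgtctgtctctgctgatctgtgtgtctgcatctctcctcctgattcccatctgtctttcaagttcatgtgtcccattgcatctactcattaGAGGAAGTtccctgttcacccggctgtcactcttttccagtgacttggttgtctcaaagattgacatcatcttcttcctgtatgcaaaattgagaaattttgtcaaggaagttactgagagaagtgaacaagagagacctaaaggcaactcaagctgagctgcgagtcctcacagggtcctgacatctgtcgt

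Sirpa, in contrast, had nearly the same level in both groups. It had 2149, 1932, 2197 and 1946 CPM in control libraries 1 to 4 and 2344, 1980, 2201 and 2055 CPM in IgG libraries 1 to 4. The groups overlapped, and libraries 1 and 3 were the highest in both of them. The change within pairs was 0.13, 0.04, 0.00 and 0.08 on the log2 scale, positive in 4 of 4 pairs, and the fitted change was 0.06 (SE 0.094, 95% interval -0.16 to 0.28; adjusted p = 0.83 by edgeR's quasi-likelihood test). With libraries scaled by their totals alone the value was -0.04. The Sirpb1 genes, which encode activating relatives that signal through Tyrobp and whose coding sequences were 70.4–71.5% identical to that of Sirpa, had higher means with IgG, and none passed adjustment. Sirpb1a went from 2.88 ± 0.336 to 4.69 ± 0.889 CPM, a log2 fold change of 0.70 (SE 0.16, adjusted p = 0.18), and met the threshold of the study. Sirpb1b went from 3.64 ± 0.280 to 5.22 ± 1.43 CPM (0.49 on the log2 scale, adjusted p = 0.40) and Sirpb1c from 7.29 ± 1.16 to 9.77 ± 0.280 CPM (0.43, adjusted p = 0.36), and neither met the threshold of the study. The groups did not overlap in any of these genes, where 2.6% of all genes tested had every IgG library above every control library. The counts of these genes were between 61 and 232 in a library. Words shared among the Sirpb1 genes were not counted, so these close relatives may not be separate observations. The summed Sirpb1 counts were 0.00558–0.00837 of those of Sirpa in the control and 0.00791–0.0117 in the IgG libraries, and within pairs the ratio differed by 0.47, 0.48, 0.50 and 0.34 on the log2 scale, a ratio also chosen after the values were seen and not tested. The promoters of Sirpb1a and Sirpb1b held both the ISRE and the GAS core, and that of Sirpb1c the GAS core.
Sirpb1a (GRCm38.p6, chr3:15426378-15426677, minus strand): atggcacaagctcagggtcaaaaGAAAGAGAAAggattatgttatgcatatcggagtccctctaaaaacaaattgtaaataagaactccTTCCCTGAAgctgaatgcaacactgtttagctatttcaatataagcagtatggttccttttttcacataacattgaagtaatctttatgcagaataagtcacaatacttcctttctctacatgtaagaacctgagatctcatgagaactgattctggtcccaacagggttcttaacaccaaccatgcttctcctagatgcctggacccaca
Capitals mark first the ISRE core, 227 bases before the start, and then the GAS core, 161 bases before it. The aligned parts of the Sirpb1b and Sirpb1c promoters were 95.7% and 95.6% identical to this sequence.

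None of Pirb, Lilrb4a and Lilr4b showed a change that the tests called. Pirb had 105, 93.6, 84.9 and 76.6 CPM in control libraries 1 to 4 and 104, 104, 79.6 and 83.2 CPM in IgG libraries 1 to 4. The groups overlapped over almost their whole range, and the fitted change was 0.04 on the log2 scale (SE 0.089, 95% interval -0.16 to 0.24, adjusted p = 0.88 by edgeR's quasi-likelihood test), or 0.14 without pairs 1 and 3. Its activating relatives Pira2 and Lilra6, with coding sequences 95.4% and 94.7% identical to Pirb, had log2 fold changes of 0.07 and 0.27. Lilra6 was higher in 4 of 4 pairs (95% interval 0.06 to 0.48, unadjusted p = 0.017, adjusted p = 0.40). Of the 50-base words in the Pirb transcripts, 34% also occur in other genes, so its counts depend on how reads with several matches were treated. Lilrb4a had 723, 503, 780 and 692 CPM in the control and 698, 526, 760 and 580 CPM in the IgG libraries. Pair 2 was the lowest in both groups. The fitted change was -0.07 (SE 0.095, 95% interval -0.29 to 0.15, adjusted p = 0.80). Lilr4b had 442, 338, 430 and 444 CPM in the control and 421, 346, 420 and 364 CPM in the IgG libraries, with a fitted change of -0.09 (SE 0.093, 95% interval -0.30 to 0.12, adjusted p = 0.73). These neighbours moved together, and the ratio of Lilrb4a to Lilr4b counts changed by only 0.02 ± 0.016 on the log2 scale within pairs (SD, n = 4). Their coding sequences were 96% identical, 24.1% of the 50-base words of Lilr4b occur in Lilrb4a, and 35.3% of the exonic bases of Lilrb4a belong also to Gm49339, a gene model on the same strand that overlaps both. Gm49339 had 565 CPM in the control and 549 CPM in the IgG libraries, so neither gene can be measured apart from the other with certainty.

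Lair1 was higher in 3 of 4 pairs. It had 133, 148, 140 and 148 CPM in control libraries 1 to 4 and 184, 159, 191 and 137 CPM in IgG libraries 1 to 4. The high values were those of IgG libraries 1 and 3, whereas IgG library 4 was within the control range. The fitted change was 0.23 on the log2 scale (SE 0.12, 95% interval -0.04 to 0.50, adjusted p = 0.54 by edgeR's quasi-likelihood test), and it was -0.0012 without pairs 1 and 3, the pairs whose IgG libraries had the high mitochondrial shares. The part of that share in the value was not tested.

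The CD300 receptors, encoded in a cluster on chromosome 11, did not move as a group. Cd300a had 93.6, 86.6, 81.7 and 86.4 CPM in control libraries 1 to 4 and 73.3, 75.6, 76.1 and 84.8 CPM in IgG libraries 1 to 4. It was lower with IgG in 4 of 4 pairs, by 0.35, 0.20, 0.10 and 0.03 on the log2 scale within them, and IgG library 4 overlapped the control range. The fitted change was -0.17 (SE 0.092, 95% interval -0.38 to 0.04, adjusted p = 0.55), or -0.11 without pairs 1 and 3. Cd300lb had 225, 218, 221 and 242 CPM in the control and 217, 179, 210 and 209 CPM in the IgG libraries. The groups did not overlap, all IgG values being the lower ones, with a gap of about 1 CPM between the nearest of them, and the fitted change was -0.16 (SE 0.088, 95% interval -0.36 to 0.05, adjusted p = 0.56), or -0.25 without pairs 1 and 3. Cd300ld had 29.4, 27.6, 28.7 and 22.9 CPM in the control and 40.4, 25.2, 38.6 and 21.3 CPM in the IgG libraries. It was thus higher in pairs 1 and 3 and lower in pairs 2 and 4, and the fitted change of 0.17 (SE 0.13, 95% interval -0.14 to 0.47, adjusted p = 0.66) became -0.12 without pairs 1 and 3. Cd300lf had 10.2, 4.86, 9.41 and 4.00 CPM in the control and 13.4, 3.69, 14.3 and 6.14 CPM in the IgG libraries. Pairs 1 and 3 were high in both groups, so this receptor varied more between the dates in the labels than with IgG. The fitted change was 0.32 (SE 0.18, 95% interval -0.10 to 0.75, adjusted p = 0.57 by edgeR's quasi-likelihood test). It was 0.12 without those pairs and 0.53 without pair 2, and ranged from 0.11 to 0.66 over all alternatives.

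**Figure D2:**
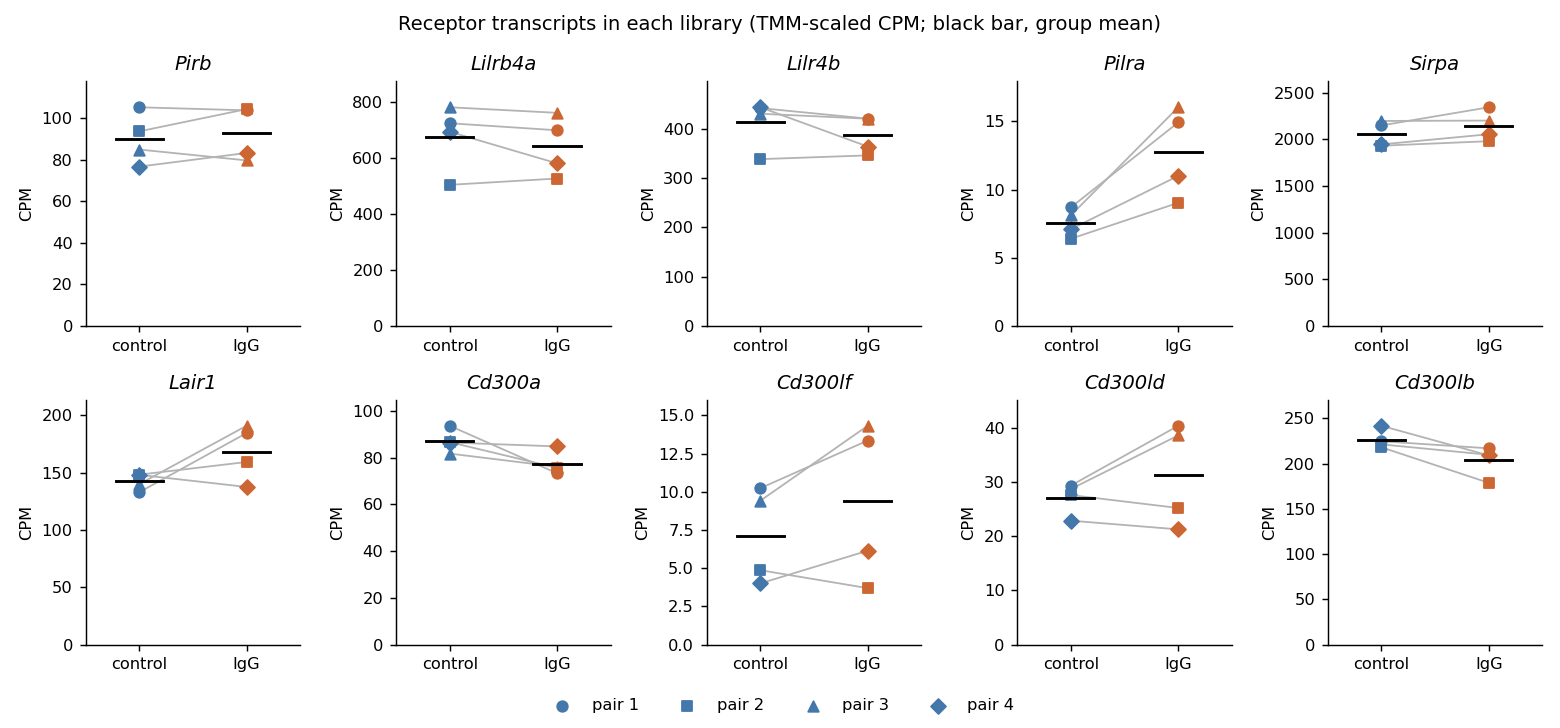
TMM-scaled CPM of each receptor in each library (blue, control; orange, IgG), with grey lines joining the libraries of a pair, marker shapes for pairs 1 to 4, black bars for group means and all axes starting at 0. All 4 lines rise for Pilra, from 6.40–8.70 to 9.03–16.0 CPM, and all 4 fall for Cd300a and Cd300lb.

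For some neighbouring CD300 genes that were not among the 10, the change with IgG also differed between pairs. Cd300ld3, Cd300ld4 and Cd300ld5, relatives of Cd300ld with more counts than it, had log2 fold changes of 0.13, 0.18 and 0.26, with positive values in pairs 1 and 3 and negative ones in pair 4 for each. Cd300ld2 differed from these, at 0.07, 0.10, 0.04 and -0.38 within pairs 1 to 4. Cd300c2 went from 131 ± 2.11 to 131 ± 17.1 CPM, with the opposite pattern of pairs 1 and 3 below 0 and pairs 2 and 4 above. The IgG libraries of pairs 1 and 3 had the high mitochondrial shares, and the part of that share in these values was not tested. The coding sequence of Cd300ld was 85.7% identical to that of Cd300ld3 and 84.7% to that of Cd300lf over the aligned columns, but only 3.89% of its 50-base words occur in other genes, so its counts can be told apart from theirs to a larger degree than those of the gp49 genes.

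Across the 10 receptors, none had an adjusted p under 0.05, where 0.393% of the genes tested did so with a higher level and 0% with a lower one. At an unadjusted p under 0.05, Pilra was the only one that was higher (6.35% of all genes) and none was lower (3.85%). With DESeq2, 1 of the 10 passed an adjusted p of 0.05, again Pilra, where 1.21% of all genes tested passed with a higher level. The shares of all genes were 1.6% with the likelihood ratio test, 0.972% without the filter and 1.07% with the length and GC correction, under which Pilra was again the 1 receptor to pass. The threshold of the study was met by 1 receptor upward, against 1.48% of all genes, and by 0 downward, against 0.342%. Pilra and Sirpa were higher in all 4 pairs, a count of 2 beside 10.5% of all genes, and Cd300a and Cd300lb were lower in all 4, also 2, beside 8.46%. Groups without overlap were seen for 1 receptor upward (2.6% of all genes) and 1 downward (1.57%). The median change of the 10 receptors was 0.05 on the log2 scale, beside -0.01 over all genes tested. For 9 of the 10 the 95% interval of the change included 0, and these intervals reached no further than 0.75 upward or 0.38 downward. The plot of changes gives the interval and the pair values of each receptor.

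**Figure D3:**
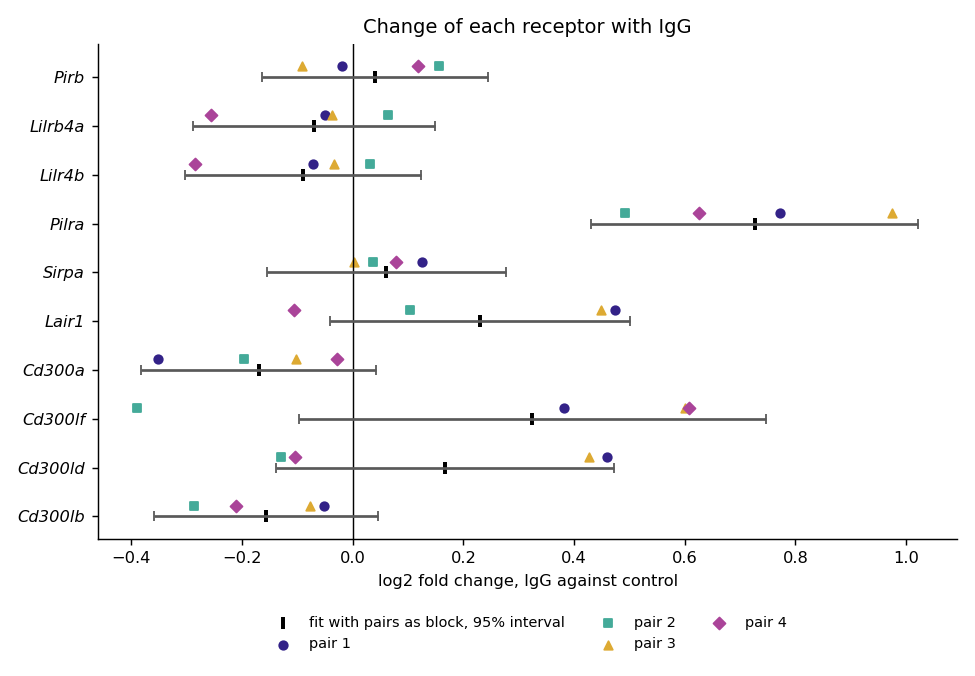
Log2 fold change of each receptor with IgG, as the fitted value (black tick) with its 95% interval (horizontal bar, pairs as a block, n = 4 pairs) and as the difference of log2 CPM within each pair (coloured markers, offset upward). The interval of Pilra runs from 0.43 to 1.02, and those of the other 9 receptors include 0.

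Among 36 related receptors (activating counterparts and other paired or inhibitory receptors), 31 were in the table under the symbol used and 22 were tested. Of these 22, 1 had an adjusted p under 0.05 and was higher (0.393% of all genes tested). The threshold of the study was met by 4 upward, beside 1.48% of all genes. At an unadjusted p under 0.05, 8 were higher and 1 was lower, beside 6.35% and 3.85% of all genes, and 8 were higher and 2 lower in all 4 pairs, beside 10.5% and 8.46%. The median change was 0.10 on the log2 scale. The lower one was Lilra5, a relative of Pirb, which went from 1.09 ± 0.142 to 0.623 ± 0.354 CPM and was lower in 4 of 4 pairs. Its log2 fold change was -0.88 (SE 0.38, unadjusted p = 0.049, adjusted p = 0.49 by edgeR's quasi-likelihood test). Its counts were low, between 6 and 31 in a library. The receptor past adjustment was Clec4a2, a C-type lectin receptor with an inhibitory motif, which went from 33.9 ± 9.48 to 73.6 ± 24.7 CPM (log2 fold change 1.09, SE 0.10, adjusted p = 0.0091 by edgeR's quasi-likelihood test) and was higher in 4 of 4 pairs. Its groups overlapped because the level differed between dates, and without the block its adjusted p was 0.64. Trem2, a lipid receptor that signals through Tyrobp, went from 825 ± 59.6 to 777 ± 245 CPM, a log2 fold change of -0.14 (adjusted p = 0.72), with -0.35, -0.10, -0.42 and 0.33 within pairs 1 to 4. Clec12a, another C-type lectin receptor with an inhibitory motif, went from 196 ± 13.7 to 255 ± 31.2 CPM, a log2 fold change of 0.37 (adjusted p = 0.23). The family plot places these changes beside those of the 10 receptors.

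No signalling gene behind the inhibitory receptors passed adjustment. Of 15 such genes, none met the threshold of the study either (1.48% of all genes upward, 0.342% downward), 5 were higher and 0 lower at an unadjusted p under 0.05 (6.35% and 3.85% of all genes tested), and the median change was 0.08, with 10 fitted values above 0 and 5 below. Ptpn6, the phosphatase these receptors recruit, went from 305 ± 29.0 to 355 ± 10.1 CPM (0.22 on the log2 scale, adjusted p = 0.49), with no overlap between the groups. Grb2, an adaptor that links receptors to Ras signalling, went from 296 ± 18.2 to 270 ± 27.8 CPM (-0.14, adjusted p = 0.64), with -0.29, 0.01, -0.34 and 0.07 within pairs 1 to 4. Lyn, a kinase that phosphorylates their tails, went from 197 ± 20.8 to 261 ± 49.4 CPM (0.39, adjusted p = 0.20), and Inpp5d, a lipid phosphatase, from 184 ± 11.6 to 224 ± 42.1 CPM (0.27, adjusted p = 0.46), with 0.43, 0.22, 0.40 and 0.01 within pairs 1 to 4. Of 11 adaptors and kinases of the activating side, Pik3ap1, an adaptor for PI3-kinase, met the threshold of the study at 402 ± 69.4 and 603 ± 210 CPM (0.52, adjusted p = 0.21; 0.77, 0.46, 0.75 and 0.12 within pairs 1 to 4), none had an adjusted p under 0.05, and 4 were higher and 0 lower at an unadjusted p under 0.05 (6.35% and 3.85% of all genes), with a median of 0.12. Fcer1g, the adaptor of Cd300ld and of IgG receptors, went from 581 ± 34.8 to 778 ± 85.8 CPM (0.42, adjusted p = 0.21). Tyrobp, the adaptor of Cd300lb and of the PILR and SIRP activating members, went from 1005 ± 51.3 to 907 ± 297 CPM (-0.20, adjusted p = 0.67), with changes of -0.52, -0.05, -0.64 and 0.40 within pairs 1 to 4, so that the lower mean rests on pairs 1 and 3. The kinase Syk went from 314 ± 31.9 to 342 ± 47.5 CPM (0.12, adjusted p = 0.64) and Vav1, an exchange factor, from 232 ± 21.9 to 286 ± 26.2 CPM (0.30, adjusted p = 0.29).

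Transcripts of known ligands were measured in the same libraries. Of 22 listed ligand genes, 20 were tested, none had an adjusted p under 0.05, 3 were higher and 3 lower at an unadjusted p under 0.05 (6.35% and 3.85% of all genes tested), and the median change was -0.01. The threshold of the study was met by 1 upward, H2-K1 (1.48% of all genes), and by 0 downward (0.342%). H2-K1, a class I MHC gene and so a ligand of Pirb, went from 686 ± 138 to 1038 ± 180 CPM (log2 fold change 0.60, adjusted p = 0.051 by edgeR's quasi-likelihood test), with no overlap between the groups. B2m, the light chain of class I MHC, went from 1614 ± 206 to 2256 ± 465 CPM (0.47, adjusted p = 0.14). Cd47, the ligand of Sirpa, went from 134 ± 23.4 to 177 ± 54.3 CPM (0.36, adjusted p = 0.35), with 0.55, 0.19, 0.57 and 0.14 within pairs 1 to 4. The 3 lower ligand genes were Fn1, Itgb3 and Pianp. Itgb3 went from 14.1 ± 1.20 to 11.2 ± 1.47 CPM (-0.34, adjusted p = 0.38 by the same test), with no overlap between the groups. Pianp went from 117 ± 8.47 to 95.7 ± 22.7 CPM (-0.31, adjusted p = 0.47 by the same test), with -0.66, -0.12, -0.49 and 0.02 within pairs 1 to 4. C1qa, a chain of the complement protein bound by Lair1, went from 1750 ± 238 to 1801 ± 462 CPM (0.01, adjusted p = 0.98). Apoe, the listed gene with the highest CPM, was at 24879 ± 1518 and 19304 ± 8734 CPM, with log2 changes of -1.06, -0.06, -1.17 and 0.37 within pairs 1 to 4.

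**Figure D4:**
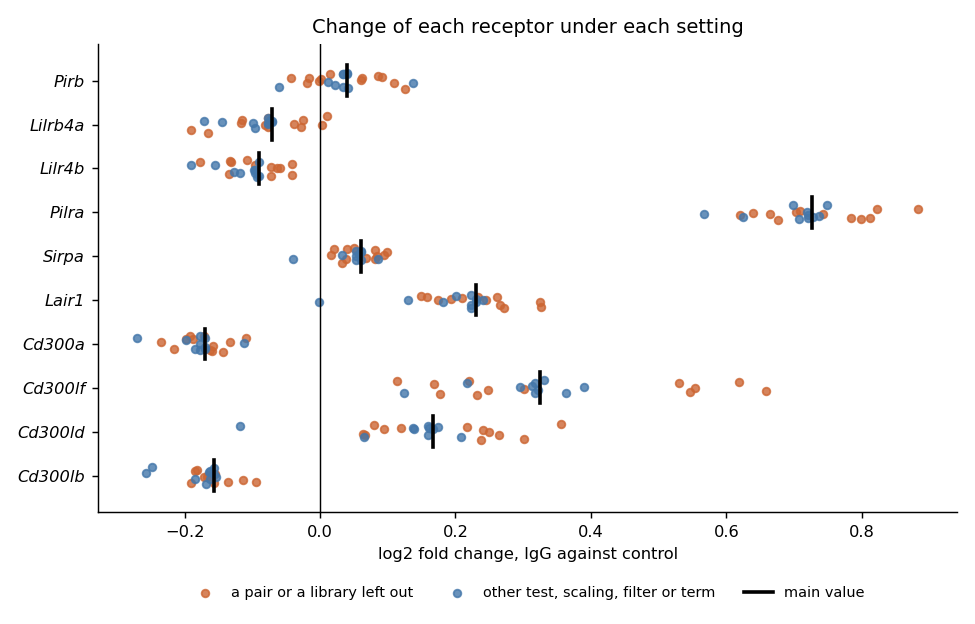
Fitted log2 fold change of each receptor (black bar) and its value under each of 22 alternatives (orange, a pair or a library left out; blue, another test, scaling, filter or model term). Pilra stays between 0.57 and 0.88, while the points of Pirb, Lilrb4a, Sirpa, Lair1 and Cd300ld fall on both sides of 0.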

How the data were processed

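RNA-seq libraries of 4 control and 4 IgG cultures were analysed. The deposited values are raw counts with 1 row per Ensembl identifier, for which the authors aligned reads to GRCm38 with HISAT2 2.2.1, and the submitters' processing notes also name SAMtools 1.12, Picard 2.26.3, featureCounts, R 4.1.2 and edgeR 3.36.0. The annotation, the use of strand and the handling of reads with several matches are not given in the sources used here. Symbols, exon lengths and overlaps came from GENCODE M21, which holds 55144 of the 55385 identifiers, and promoters from RefSeq (GRCm38.p6).

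Counts were scaled by TMM, filtered with filterByExpr and compared between IgG and control in edgeR 4.0.16 (R 4.3.3; quasi-likelihood test) with the pair as a block, with Benjamini-Hochberg adjustment over 17537 genes. The unadjusted p and fold change threshold is that of the study. Changes within pairs used log2 CPM with a prior count of 2. Pairing came from the date in the labels. After group means were removed, a control and an IgG library of 1 pair had correlations of 0.47, 0.43, 0.28 and 0.33 over 11925 genes, against -0.38 to 0.28 between pairs (genes are not independent replicates). Pair 3 was not set apart, since control library 1 with IgG library 3 also had 0.28. Removing group means itself lowers the values between pairs when those within pairs are positive. P-values of the fit with the block measure the spread of the change between pairs of these cultures, with the level of each date removed. The pups of the cultures were pooled. No libraries of a group agreed within sampling noise (chi-square per degree of freedom at least 5.00). At this depth 3 counts are 0.127–0.141 CPM with libraries scaled by their totals alone, without the TMM factors.

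The 10 receptors and the other lists were chosen with earlier results of these data known. All 10 were named, and of the other lists the genes past a threshold and otherwise up to 4 with the highest mean CPM, whereas Pilra's and Sirpa's relatives, Pira2, Lilra6, the Cd300ld genes and Cd300c2, Zcwpw1, Gm49339, Lilra5, Cd47, Fn1, Itgb3, Pianp, Cbr2 and Mrc1 were named after their values were seen, as relatives, neighbours, ligands or markers. Shared 50-base words were counted on the GENCODE transcripts, and identities were aligned with Biopython. Alternatives were DESeq2 1.42.0, limma-voom 3.58.1, the likelihood ratio test, other scalings and filters, a lowess correction (span 0.3) for length and GC content, the fit without the block, and the omission of pairs and libraries.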

Additional observations from a re-analysis of the deposited data

Results flagged for a closer look

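In 4 of the 64 groups of 4 libraries examined (the 10 receptors and the 22 tested related receptors), 1 library lay far from the other 3, with the gap to the nearest divided by the whole range above Dixon's critical value. Chance gives about 1 in 20, or 5% of groups. Lilr4b in control library 2 was at 338 CPM where the other control libraries were at 430–444 CPM (ratio 0.876), and the IgG library of the same date was also the lowest of its group, at 346 CPM. Cd300ld2 in IgG library 4 was at 19.2 CPM against 25.2–25.8 CPM (ratio 0.910). Cd200r4 in control library 4 was at 4.13 CPM against 11.9–13.3 CPM (ratio 0.846), and IgG library 4 was at 3.05 CPM. Cd33 in control library 4 was at 46.7 CPM where the next control library was at 36.0 CPM (ratio 0.846), and IgG library 4, at 42.2 CPM, was the highest of its group.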

How the results depend on the processing

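Over 22 alternatives the direction held in all 22 for Pilra, Lilr4b, Cd300a, Cd300lf and Cd300lb. Pilra ranged from 0.57 to 0.88 on the log2 scale, with adjusted p-values from 0.00022 to 1.00, and from 0.64 to 0.80 with each pair left out. Without the replicate block its value was 0.75 (unadjusted p = 0.0030, adjusted p = 0.67 by edgeR's quasi-likelihood test), the number of receptors past adjustment was also 0, and 0 genes in all passed adjustment where 69 did with the block. The number of receptors past adjustment was 1 with the likelihood ratio test, with DESeq2, without the filter and with the length and GC correction, each time Pilra. The share of all genes that passed with a higher level was then 1.6, 1.21, 0.972 and 1.07%, against 0.393% in the main comparison. The number that met the threshold of the study was 0 to 1 with libraries left out, and 0 without control replicate 2 or control replicate 4, where no block could be used. With library totals alone, the median of all genes moved to -0.11 and 1 receptor was higher in all 4 pairs. Lilrb4a was then at -0.17, Lilr4b at -0.19, Cd300a at -0.27, Cd300lb at -0.26, Lair1 at 0.13 and Cd300ld at 0.066. Cd300a and Cd300lb had unadjusted p-values of 0.022 and 0.0097 by edgeR's quasi-likelihood test (adjusted p = 0.40 and 0.36). Under this scaling Pirb was at -0.060 and Sirpa at -0.040. Other values changed sign when pairs or libraries were left out. Pirb ran from -0.0017 (without replicate 4) to 0.085 with a pair left out, and was at -0.042, -0.016 and -0.019 without control replicate 4, IgG replicate 1 and IgG replicate 2. Lilrb4a was at 0.0035 without control replicate 3 and 0.011 without IgG replicate 2. Lair1 was at -0.0012 and Cd300ld at -0.12 without replicates 1 and 3. Lilr4b kept its direction but was at -0.041 without replicate 4 and at -0.18 without control replicate 2. The cause of these shifts was not tested. The counts of Pilrb1 and Pilrb2 were 25–74 in a library and those of Cd300lf 85–292.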

Other observations

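A list of 12 interferon-stimulated genes was set beside the receptors. All 12 were higher with IgG in the fit, 7 had an adjusted p under 0.05 by edgeR's quasi-likelihood test with the block (0.393% of all genes tested), and the median change was 0.93 on the log2 scale, beside 0.05 for the 10 receptors and 0.10 for the 22 tested related receptors. Irf7 went from 123 ± 54.6 to 263 ± 108 CPM (SD, n = 4), a log2 fold change of 1.13, and Ifit3 from 130 ± 51.1 to 249 ± 118 CPM, a log2 fold change of 0.89. The change of Clec4a2 (1.09) was of the size seen in this list, and that of Pilra (0.73) was below its median.

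Fn1, a ligand of Lilrb4a, went from 991 ± 255 to 742 ± 116 CPM (log2 fold change -0.39, adjusted p = 0.37) and was lower in 4 of 4 pairs. H2-D1, another class I MHC gene, went from 2450 ± 229 to 2882 ± 269 CPM (log2 fold change 0.23, adjusted p = 0.53) and was higher in 4 of 4 pairs.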
